A study of Mus musculus with 56 samples.

Results

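A set of 10 genes of cytokine and growth hormone signalling was followed in mouse calf muscle through cigarette smoke exposure and cessation. They were the feedback inhibitors Cish, Socs2 and Socs3, the transcription factors Stat3, Stat5a and Stat5b, the receptors Ghr and Il6ra, and the secreted proteins Igf1 and Il15. The 10 genes were listed by name, chosen from earlier results of the same arrays, so their levels and differences are descriptions and their p-values are no independent support. They were measured by 28 probe sets, of 45037 on the array, and made up 10 of 18193 genes with a probe set of their own. All 10 lay above the filter on dim probe sets and were among the 12347 genes tested.

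RNA came from the gastrocnemius of female C57BL/6 mice, whose age the labels do not give, and each mouse's RNA was amplified before it was hybridised. Untreated mice were taken at week 0. Exposed mice breathed 4% mainstream cigarette smoke through the nose, and sham mice breathed air in the same way, for 2 hours a day on 5 days a week over 2, 12 or 24 weeks. In 2 cessation arms the mice had 12 weeks of smoke followed by 12 weeks of sham exposure. The labels call these arms FA and RA without defining either term, and they also use FA for the sham air groups, so whether RA mice breathed the same air is not known. Each of the 9 groups held 6 mice, except smoke at 12 weeks with 7, among them a mouse named G8 whose 2 arrays were averaged. In all there were 56 arrays of 55 mice. Nothing in the labels ties replicate numbers of different groups to each other.

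Cytokines and growth hormone bind receptors that carry JAK kinases, and the kinases phosphorylate STAT proteins, which enter the nucleus and switch genes on. Cish, Socs2 and Socs3 are among the genes so induced, and their proteins dampen the receptor that induced them. In muscle and liver, growth hormone acts through Ghr and Stat5b on Igf1, while interleukin 6 acts through Il6ra and Stat3. STAT proteins bind DNA at paired TTC and GAA half-sites, and the clock proteins CLOCK and ARNTL bind the E-box CACGTG.

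Cish was the member whose level varied most between mice, and its promoter was searched for these letters together with those of the other members. RefSeq promoters (assembly GRCm38.p6, 250 bases before to 50 after a start site) were found for 8 of the 10 genes, 11 promoters in all, and none for Socs2 and Il15. The STAT motif was searched as TTCNNNGAA, which reads the same on both strands, and the E-box as CACGTG. The stretches of 30 bases below hold every match among these promoters and are printed on the gene's strand with the matched letters in capitals.
Cish, chr9:107296654-107296683, plus strand: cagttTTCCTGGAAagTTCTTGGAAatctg
Socs3, chr11:117969501-117969530, minus strand: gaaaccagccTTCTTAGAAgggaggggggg
Il6ra, chr3:89913203-89913232, minus strand: gctgctgtgtgtCACGTGcatgtgggaagt

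Cish held 2 copies of the STAT motif, the second starting 11 bases after the first, at the start of transcription given in the table. Socs3 held 1 copy, 154 bases before its start. The STAT motif was held by 8.30% of all 32851 promoters, and 0.457% held 2 or more copies. Il6ra held an E-box 24 bases before its start, as did 7.15% of all promoters at some position. A match describes the sequence only.

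The arrays differed in a way that bears on several members. Glycam1, a gene of lymph node vessels, had an intensity of 6944 or more on 12 arrays and at most 307 on the other 44. The mean of 12 lymphocyte markers was 8.04 to 10.80 (log2) on those 12 arrays and 4.85 to 6.29 on the others. The 12 arrays came from 1 untreated mouse, 1 at 2 weeks of air, 2 at 12 weeks of smoke, 1 at 24 weeks of air, 3 at 24 weeks of smoke, 1 of cessation FA and 3 of cessation RA. Results are therefore given with all 55 mice and with the 44 mice left without these arrays. The array of replicate 6 of 24 weeks of smoke, 1 of the 12, also stood apart over all tested genes, with a mean correlation of 0.827 with the other arrays, against 0.923 for the next lowest. It held the lowest level of Stat5b, Ghr, Il15 and Socs2 and the highest of Il6ra among all mice. Muscle fibre genes were at a mean log2 level of 13.27 to 13.49 on every array, in keeping with the labelled tissue. In whole tissue, fewer cells of a type and less RNA per cell cannot be told apart.

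All levels below are log2 of the deposited intensity plus 16, on which 1 unit is a doubling, and errors are SDs between mice unless a standard error (SE) is named. Levels of different probe sets are not compared with each other. Differences and Benjamini-Hochberg adjusted p-values are from a limma model of all 9 groups across 12347 genes, and a gene passed at an adjusted p under 0.05. In 13 comparisons of the 10 genes, 2 of 130 differences passed, and 12 had an unadjusted p under 0.05. Both that passed belonged to 24 weeks of smoke against cessation RA. Without the Glycam1-high arrays none of the 130 passed in limma, and 9 had an unadjusted p under 0.05. Over all 12347 genes, 230 to 3425 had an unadjusted p under 0.05 in a comparison with all mice. Without those arrays 618 to 2571 did. Counts of members under this limit are therefore given beside those of all genes.

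Cish encodes a cytokine-induced inhibitor that acts on STAT5 signalling. In untreated mice the Cish level was 7.92, 11.13, 6.89, 9.33, 8.11 and 9.41. At 2 weeks it was between 6.78 and 8.65, median 7.82, in air and between 7.10 and 10.41, median 8.84, in smoke. At 12 weeks it was between 7.07 and 9.67, median 7.81, in air and between 7.43 and 9.26, median 8.62, in smoke. These groups overlapped at each time, and the untreated mice alone covered nearly the whole range of the experiment.

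At 24 weeks of air the Cish level was 7.28, 7.63, 8.81, 7.96, 7.14 and 7.79. At 24 weeks of smoke it was 7.31, 7.12, 8.80, 6.65, 6.66 and 7.34. The smoke values lay low, with replicate 3 far above the others. In cessation FA the Cish level was 9.03, 7.80, 8.53, 7.65, 7.77 and 7.71, and in cessation RA it was 10.50, 8.22, 9.73, 10.06, 8.57 and 10.05. In RA, 4 of 6 mice lay above every mouse of 24 weeks of smoke, of 24 weeks of air and of cessation FA, and the other two overlapped them.

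**Figure D1:**
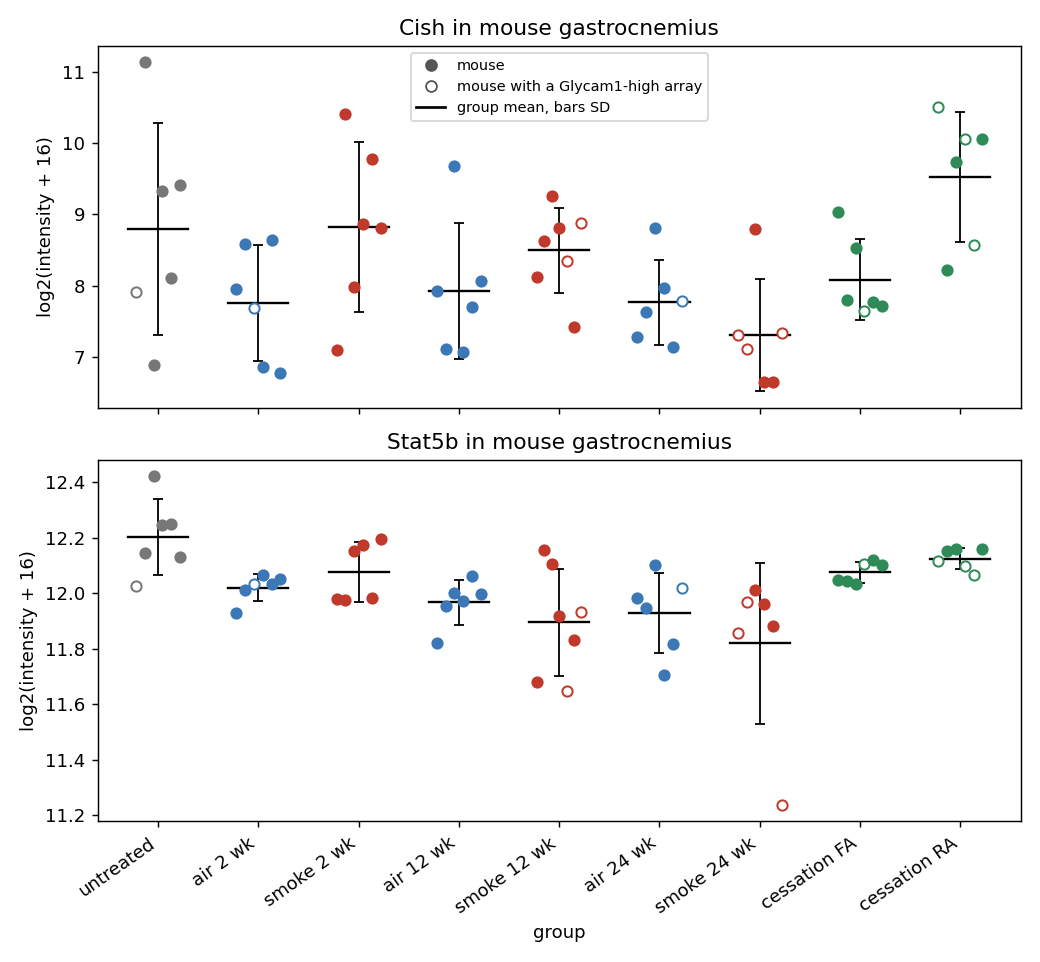
Levels of Cish (top) and Stat5b (bottom), log2 of intensity plus 16, in each mouse of the 9 groups; open circles mark mice with a Glycam1-high array, bars are the group mean and SD. Cish was highest on average in cessation RA (9.52) and lowest at 24 weeks of smoke (7.31), and for Stat5b all 6 mice of 24 weeks of smoke lay below all mice of both cessation arms. How many of all tested genes separated as fully was not counted.

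Cish was 2.21 lower (SE 0.52, 95% interval -3.25 to -1.17) at 24 weeks of smoke than in cessation RA, or 4.62-fold, with an adjusted p of 0.011 in limma. The group means were 7.31 ± 0.79 (SD, n = 6) and 9.52 ± 0.91 (SD, n = 6), and 4 of 6 RA mice lay above the highest smoke mouse. When the Glycam1-high arrays were left out, 3 mice remained in each group, the means were 7.37 ± 1.24 and 9.33 ± 0.98 (SD, n = 3), and the difference was -1.96 with an adjusted p of 0.16 in limma. The call also ended when arrays were weighted by quality (-2.09, adjusted p 0.053) and when only the 2 groups were fitted (-2.21, adjusted p 0.18). It held with each mouse of the pair of groups left out in turn, between -2.51 and -2.01.

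Stat5b is the STAT that carries the growth hormone signal in muscle and liver. Its level at 24 weeks of smoke was 11.86, 11.97, 12.01, 11.96, 11.88 and 11.24. In cessation RA the Stat5b level was 12.11, 12.15, 12.16, 12.10, 12.07 and 12.16, and in cessation FA it was 12.05, 12.04, 12.03, 12.11, 12.12 and 12.10. Every mouse of both cessation arms lay above every mouse of 24 weeks of smoke, although the distances were small. How many of all tested genes separated as fully was not counted, so the separation is a description only. In these pairs 1952 (RA) and 3425 (FA) of 12347 genes had an unadjusted p under 0.05 in limma. In the untreated mice Stat5b lay between 12.03 and 12.42, the highest mean of all groups (12.20 ± 0.14, SD, n = 6).

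Stat5b was 0.31 lower (SE 0.08, 95% interval -0.47 to -0.14) at 24 weeks of smoke than in RA, or 1.24-fold, with an adjusted p of 0.036 in limma. Without smoke replicate 6 the Stat5b difference was -0.19 with an adjusted p of 0.15, and the call also ended without RA replicate 1, 2, 3 or 6 (adjusted p 0.053 to 0.087). The Stat5b difference was -0.21 without the Glycam1-high arrays, with an adjusted p of 0.20. The Stat5b call further ended without the filter (adjusted p 0.054), with arrays weighted by quality (-0.20, adjusted p 0.083) and with only the 2 groups fitted (adjusted p 0.78). Against cessation FA Stat5b was 0.26 lower at 24 weeks of smoke and did not pass (adjusted p 0.065). A fainter Stat5b probe set, 1422102_a_at, differed by -0.49 from RA (adjusted p 0.13) and by -0.57 from FA (adjusted p 0.047) when every probe set was tested with no filter. The differences of 1422102_a_at were -0.60 and -0.45 without the Glycam1-high arrays, with adjusted p of 0.075 and 0.16. With all mice and no filter the main Stat5b probe set, 1422103_a_at, had an adjusted p of 0.070 against RA.

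Against cessation RA, 2 of the 10 members passed at 24 weeks of smoke, both lower, where 2.34% of all tested genes passed and 1.4% passed as lower. This is the contrast the genes were known from, so the count is a description. The median difference of the members was -0.18, against -0.01 over all genes tested, and 2 of 10 lay above 0. Socs2 was also 0.47 lower, with an unadjusted p of 0.038 and an adjusted p of 0.28. The intervals of the other members included 0. Over all tested genes, 1952 of 12347 had an unadjusted p under 0.05 in this comparison. No member passed without the Glycam1-high arrays, where 3.28% of all genes did, and the median of the members was -0.05.

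**Figure D2:**
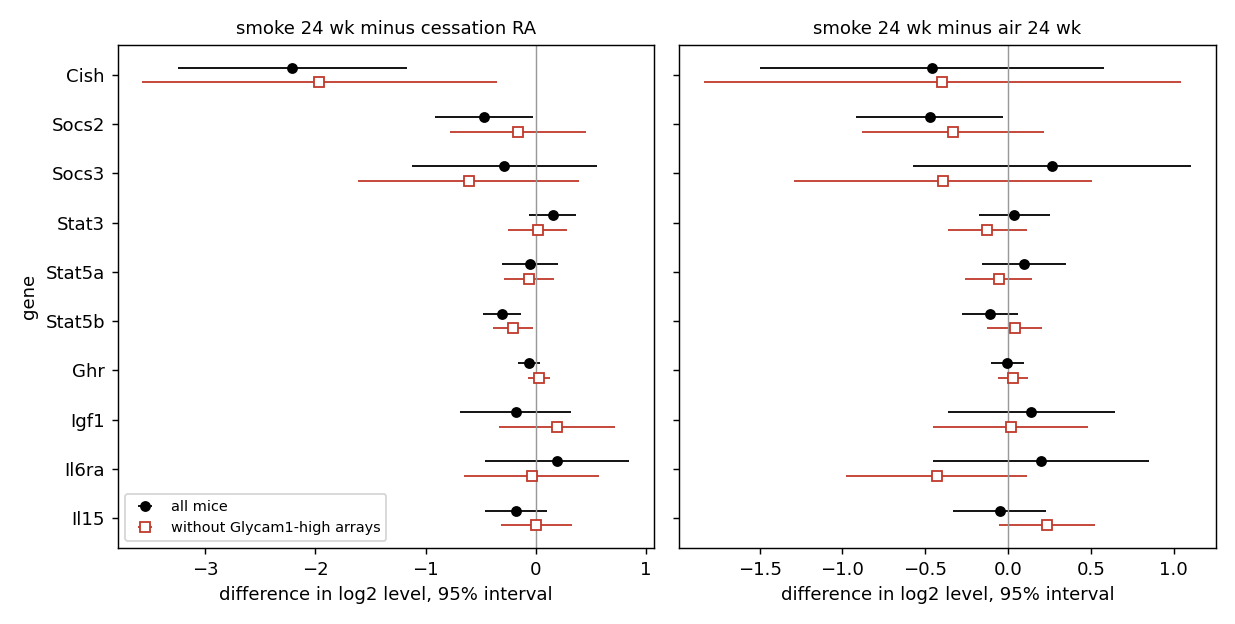
Difference in log2 level for each gene (points) with its 95% interval (bars) for 24 weeks of smoke against cessation RA (left) and against 24 weeks of air (right), with all mice (black) and without Glycam1-high arrays (open red). Against RA, Cish lies at -2.21 and -1.96, and against air at -0.46 and -0.40 with intervals that include 0.

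Other genes moved in the same comparison. Among 23 listed clock and glucocorticoid response genes, 5 passed as higher at 24 weeks of smoke than in RA and 5 as lower. Of all tested genes 2.34% passed there. The lists were chosen with earlier results of these data known, so their counts are descriptions. The period genes Per2 (1.62) and Per1 (1.24), repressors in the clock, were higher. The activators Npas2 (-1.76) and Arntl (-0.90) and the repressor Nr1d1 (-1.79) were lower. Of the same list 6 passed as higher and 5 as lower without the Glycam1-high arrays, where 3.28% of all genes passed. The labels give no hour at which tissue was taken. With all mice 3 of 5 endothelial genes passed as lower, where 1.4% of all genes did. These were Kdr (-0.62), Cdh5 (-0.47) and Tek (-0.41), all of them vessel receptors or junction proteins. None of 6 slow fibre genes passed, with a median difference of -0.47 and 0 of 6 above 0. None of 9 tested lymphocyte genes passed, with a median difference of 0.34. The part of these genes in the Cish and Stat5b differences was not tested.

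Smoke against air of the same age changed no member past the threshold. Cish was 1.07 higher at 2 weeks of smoke (95% interval 0.03 to 2.11), 0.57 higher at 12 weeks (-0.43 to 1.57) and 0.46 lower at 24 weeks (-1.50 to 0.58), with adjusted p-values of 1.00, 1.00 and 0.58 in limma. At 2 weeks 4 of 6 smoke mice had a Cish level above the highest air mouse. At 2 weeks 0 of 10 members passed, where 0% of all genes did. There 1 member, Cish, had an unadjusted p under 0.05, where 255 of 12347 genes did. At 12 weeks 0 of 10 passed, where 0.0081% of genes did. None had an unadjusted p under 0.05, where 230 of 12347 genes did. At 24 weeks 0 of 10 passed, where 0.47% of genes did. Socs2 alone of the members had an unadjusted p under 0.05, where 3044 of 12347 genes did. Leaving out the Glycam1-high arrays, 0 of 10 passed at 2, 12 and 24 weeks, and none had an unadjusted p under 0.05. Of 12347 genes, 618, 930 and 2529 then had an unadjusted p under 0.05. The shares of all genes that passed were then 0%, 0.0081% and 0.364%.

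The change of the smoke difference in Cish from 2 to 24 weeks was -1.53 (95% interval -3.00 to -0.06) with an adjusted p of 0.26, so it did not pass. No member passed for this change, where 0.0324% of genes did, or 0.146% without the Glycam1-high arrays. Cish alone of the members had an unadjusted p under 0.05, with all mice, where 2293 of 12347 genes did. Without those arrays no member did, where 2129 genes did. Averaged over the 3 times, smoke and air differed by 0.39 in Cish (-0.20 to 0.99). For this average no member passed or had an unadjusted p under 0.05, where 0.0324% of genes passed, or 0.154% without the Glycam1-high arrays. An unadjusted p under 0.05 was found for 1132 of 12347 genes, or 1634 without those arrays.

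Cessation against 24 weeks of air gave a difference of 1.75 in Cish for RA (95% interval 0.71 to 2.79), with an adjusted p of 0.066 in limma. It passed when air replicate 3 was left out (1.96, adjusted p 0.038) or RA replicate 2 (2.01, adjusted p 0.047), and was 1.57 with an adjusted p of 0.20 without the Glycam1-high arrays. Stat5b was 0.20 higher in RA than in air (adjusted p 0.27). No member passed for RA against air, where 1.76% of genes did, or 3.97% without the Glycam1-high arrays. Cish and Stat5b had an unadjusted p under 0.05 in each fit. So did 1689 of 12347 genes with all mice and 2546 without those arrays. These RA and smoke comparisons share their RA mice, so the Cish values are not independent of each other.

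In cessation FA, Cish was 0.32 above air (-0.72 to 1.36) and Stat5b 0.15 above it. No member passed for FA against air, where 0.081% of genes did, or 0.235% without the Glycam1-high arrays. None had an unadjusted p under 0.05 with all mice, and Stat5b did without those arrays. In these fits 865 and 1334 of all 12347 genes did. RA exceeded FA in Cish by 1.44 (0.40 to 2.48), with an unadjusted p of 0.0078 and an adjusted p of 0.92, and 4 of 6 RA mice lay above every FA mouse. No member passed for RA against FA, where 0.0243% of genes did, or 0.0324% without those arrays. There the Cish difference was 1.16 and no member had an unadjusted p under 0.05, where 916 of 12347 genes did. With all mice Cish was the only member under that limit, and 512 of 12347 genes were. For 24 weeks of smoke against FA, Cish was 0.77 lower (-1.81 to 0.27). No member passed for that pair, where 3.55% of genes did, or 1.9% without the Glycam1-high arrays. Stat5b alone of the members had an unadjusted p under 0.05, with all mice, where 3425 of 12347 genes did. Without those arrays no member did, where 2327 genes did.

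Time and handling were compared in mice that had no smoke. Cish was 1.04 lower after 2 weeks of sham air than in untreated mice (-2.08 to -0.00), and Stat5b was 0.18 lower (-0.35 to -0.01), with adjusted p-values of 0.68 and 0.59 in limma. No member passed, where 0.518% of genes did, or 1.94% without the Glycam1-high arrays. Cish and Stat5b had an unadjusted p under 0.05 with all mice, and Stat5a and Stat5b without those arrays. In these fits 912 and 1722 of all 12347 genes did. From 2 to 12 weeks of air no member passed or had an unadjusted p under 0.05, where 0.0081% of genes passed, or 0.907% without the Glycam1-high arrays. An unadjusted p under 0.05 was found for 767 of 12347 genes, or 1888 without those arrays. From 2 to 24 weeks of air no member passed, where 0.219% of genes did, or 2.71% without those arrays. The Il6ra mean differed by 0.65 over that time, with an adjusted p of 0.43, or 0.71 with an adjusted p of 0.081 without the Glycam1-high arrays. There Il6ra and Stat5a had an unadjusted p under 0.05, and none did with all mice. Of 12347 genes, 2571 did there and 1462 with all mice.

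Among the ligands, Il15, a cytokine that muscle secretes, lay between 9.61 and 10.35 in all mice except replicate 6 of 24 weeks of smoke, at 8.88. Its group means ran from 9.81 ± 0.52 at 24 weeks of smoke to 10.02 ± 0.22 in cessation FA (SD, n = 6 each), and without the Glycam1-high arrays 24 weeks of smoke had the highest mean, 10.07 ± 0.24 (SD, n = 3). The place of that group in the order of Il15 thus moved from lowest to highest.

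Igf1, the growth factor induced by growth hormone, ran from 8.79 to 10.61 among mice. Its group mean was highest in cessation RA, 9.92 ± 0.64 (SD, n = 6), and lowest at 2 weeks of smoke, 9.40 ± 0.18 (SD, n = 6). The RA mice had Igf1 levels of 10.61, 9.62, 9.53, 10.56, 10.20 and 9.02, and the highest were those of the 3 mice with a Glycam1-high array. Without these arrays the RA mean of Igf1 was 9.39 ± 0.32 (SD, n = 3), and the order of the groups changed.

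Of the receptors, Ghr, which binds growth hormone, varied least of the members on its main probe set. There its level ran from 12.48 to 12.93, or 1.36-fold, and 97.2% of the tested genes had a larger SD over the 55 mice than its 0.079. The group means of Ghr spanned 0.13. The Ghr probe set carries a suffix that marks sequence shared with other transcripts, so its level is uncertain, and 2 more Ghr probe sets correlated with it at 0.53 and 0.41 over the 44 mice. Those probe sets had larger SDs over the 55 mice, 0.33 (9.58 to 11.29) and 0.34 (5.86 to 8.00), against a median of 0.223 over all genes. The small spread of Ghr was thus not shared by its other probe sets.

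Il6ra, the interleukin 6 receptor, ran from 6.43 to 9.58 on its main probe set, or 8.85-fold. Its group means ran from 7.30 ± 0.62 at 2 weeks of air to 8.14 ± 0.95 at 24 weeks of smoke (SD, n = 6 each). At 24 weeks of smoke Il6ra was 8.80, 8.38 and 9.58 in the mice with a Glycam1-high array and 7.63, 7.30 and 7.16 in the others. In that group the Il6ra mean without the Glycam1-high arrays was 7.36 ± 0.24 (SD, n = 3), in sixth place of 9, and 24 weeks of air was highest at 7.79 ± 0.52 (SD, n = 5).

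On their main probe sets Stat3, which carries the interleukin 6 signal, and Stat5a, the near relative of Stat5b, spread about as much as the median gene. The SD over the 55 mice was 0.19 for Stat3 and 0.25 for Stat5a, against a median of 0.223 over all genes. Another Stat3 probe set, 1459961_a_at, had an SD of 0.48 and correlated with the main one at 0.32 over the 44 mice. A further one, 1426587_a_at, had an SD of 0.19 and correlated with it at 0.75. Stat3 lay between 9.18 and 10.17, with group means from 9.26 ± 0.04 at 2 weeks of smoke to 9.58 ± 0.29 at 24 weeks of smoke (SD, n = 6 each). With the Glycam1-high arrays left out 24 weeks of smoke ranked 4 of 9 at 9.41 ± 0.06 (SD, n = 3), and cessation FA was highest at 9.55 ± 0.37 (SD, n = 5). All 6 mice at 2 weeks of smoke had a Stat3 level below every mouse at 2 weeks of air, by 9.30 against 9.37 at the nearest, but the difference of -0.15 did not pass (adjusted p 1.00 in limma). No gene passed in that pair, and how many of all tested genes separated as fully was not counted. The Stat3 separation is thus a description only. Stat5a had group means from 9.97 ± 0.08 at 2 weeks of smoke to 10.45 ± 0.20 in cessation RA (SD, n = 6 each), and untreated mice were highest without the Glycam1-high arrays, at 10.30 ± 0.18 (SD, n = 5). Neither gene differed past the threshold in any comparison.

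**Figure D3:**
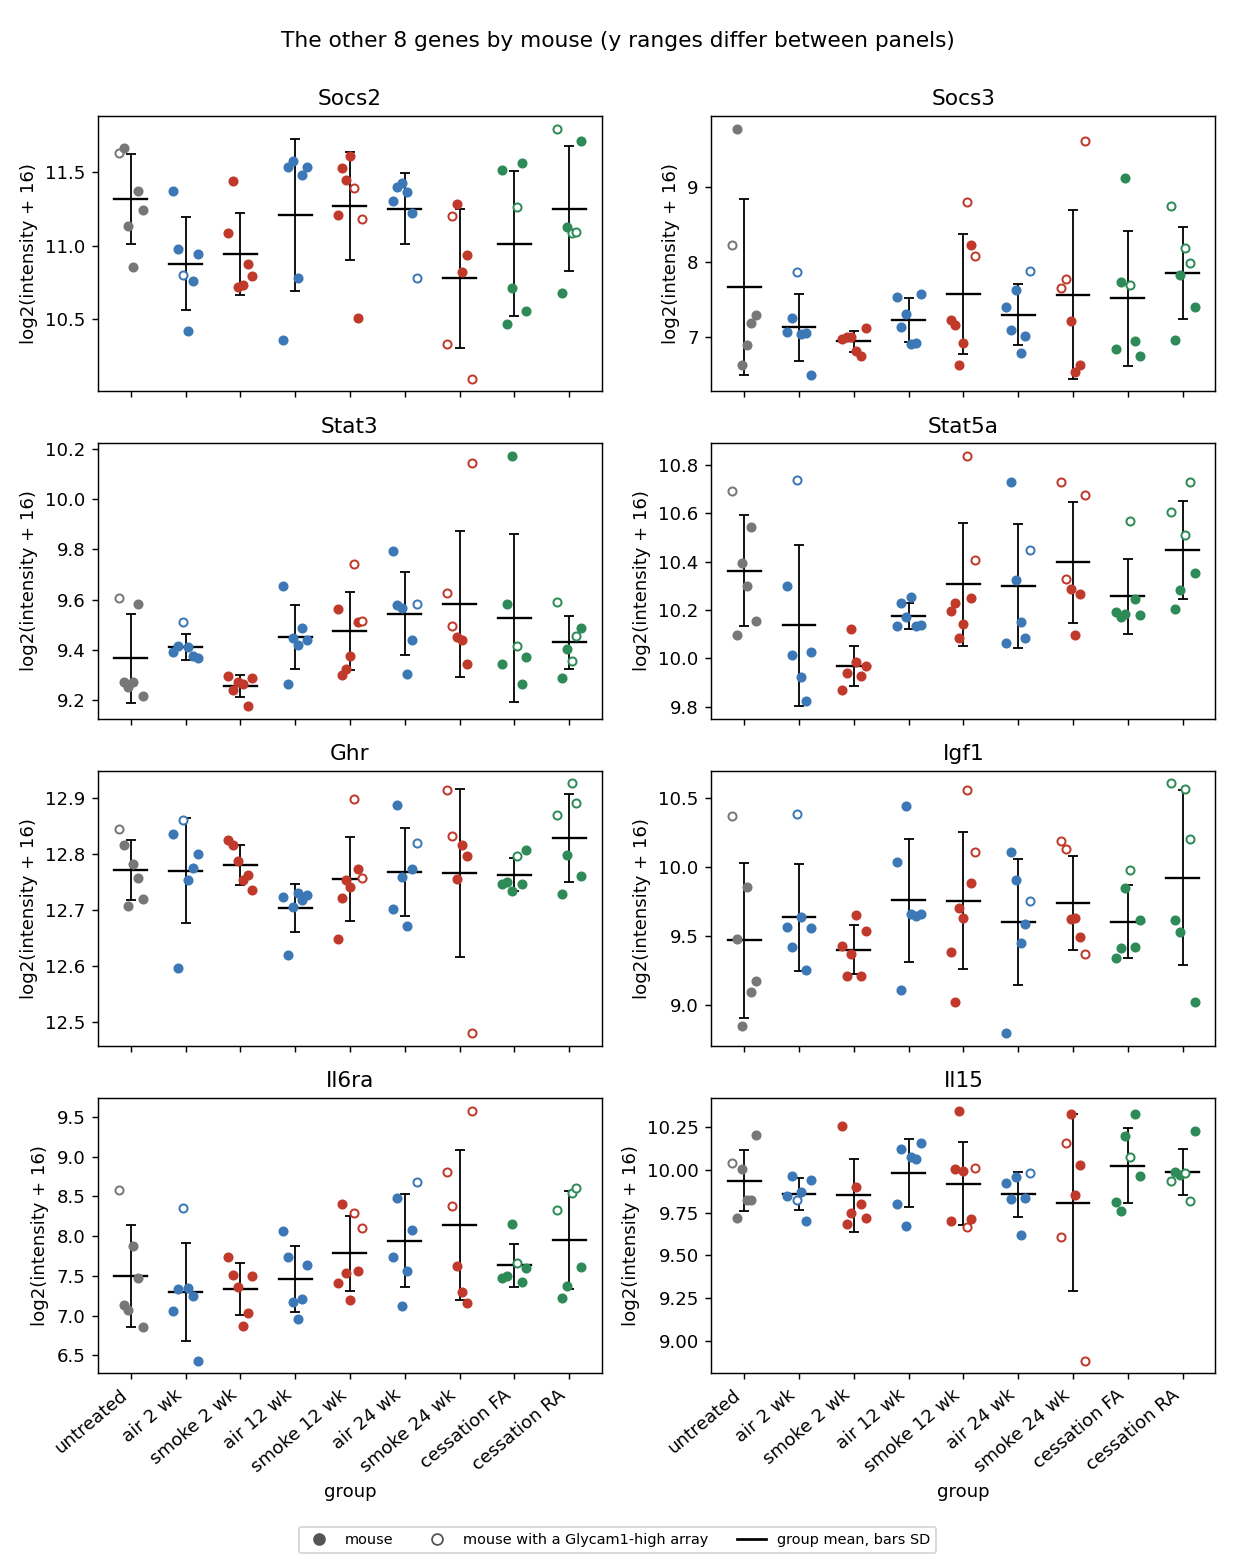
Levels of the other 8 genes, log2 of intensity plus 16, in each mouse of the 9 groups, with panels of different y ranges; open circles mark mice with a Glycam1-high array, bars are the group mean and SD. In Socs3, Il6ra, Igf1 and Stat5a the open circles lie mostly at the top of their groups, and Ghr spans 12.48 to 12.93.

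Socs2 limits growth hormone signalling, and its loss gives large mice. Its level at 24 weeks of air was 11.30, 11.40, 11.43, 11.37, 11.22 and 10.78. At 24 weeks of smoke Socs2 was 10.33, 11.20, 11.28, 10.82, 10.93 and 10.10, the lowest mean of all groups with all mice (10.78 ± 0.47, SD, n = 6). Without the Glycam1-high arrays that mean was 11.01 ± 0.24 (SD, n = 3), in sixth place of 9, and 2 weeks of air was lowest at 10.89 ± 0.35 (SD, n = 5). Of the 6 air mice, 4 lay above every smoke mouse, and the difference was -0.47 with an adjusted p of 0.18, or -0.33 with an adjusted p of 0.50 without the Glycam1-high arrays.

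Socs2 was measured by 6 probe sets, and that of highest mean shares sequence with other transcripts by its suffix. Over the 44 mice its correlation with the others ran from 0.38 to 0.88. At 24 weeks of smoke against RA, all 6 Socs2 probe sets were lower with all mice, by 0.39 to 1.35. With every probe set tested and no filter, 2 of them passed, 1442586_at (-1.35, adjusted p 0.042) and 1446085_at (-1.28, adjusted p 0.033). Without the Glycam1-high arrays their adjusted p-values were 0.23 and 0.11, at differences of -1.15 and -1.48. The 2 probe sets correlated at 0.84 over the 44 mice. The mean level of 1446085_at over the 55 mice was 5.66, under the filter level of 5.71 used in the main model. Its correlation of 0.38 with the Socs2 probe set of highest mean was the lowest of that range. The share of all probe sets that passed without a filter is not given here, so these calls are a description.

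Socs3, the inhibitor induced by interleukin 6 through Stat3, ran from 6.49 to 9.78. In untreated mice Socs3 was 8.23, 9.78, 6.63, 6.89, 7.19 and 7.30. The highest of these, replicate 2, was also the mouse with the highest Cish level of the experiment, and its array was not Glycam1-high. At 2 weeks of smoke all 6 mice lay between 6.75 and 7.13. The group means of Socs3 ran from 6.95 ± 0.14 at 2 weeks of smoke to 7.85 ± 0.62 in cessation RA (SD, n = 6 each). The order of Socs3 changed when the Glycam1-high arrays were left out. Untreated mice were then highest at 7.56 ± 1.27 (SD, n = 5), RA was no longer highest, and 24 weeks of smoke, with a mean of 7.57 over all its mice, was lowest at 6.79 ± 0.37 (SD, n = 3). Its probe set is marked as sharing sequence, and a Socs3 probe set without that mark correlated with it at 0.78 over the 44 mice.

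Levels of 4 members were higher by 0.46 or more on the Glycam1-high arrays, which differed in markers of several cell types. Besides the lymphocyte markers, the mean of 5 adipocyte markers had a median of 11.83 on the 12 arrays (11.06 to 12.33) against 9.92 on the other 44 (8.74 to 12.20). The mean of 6 macrophage markers had a median of 9.96 (9.47 to 10.60) against 8.98 (8.21 to 10.51). On the 12 Glycam1-high arrays, Il6ra was 8.54 ± 0.44 against 7.45 ± 0.40 on the other 44, and Socs3 was 8.29 ± 0.61 against 7.20 ± 0.61. Igf1 was 0.70 higher and Stat5a 0.46 higher on the Glycam1-high arrays. Cish and Socs2 differed by -0.06 and -0.07 between these sets of arrays, Stat5b by -0.12, Il15 by -0.13, Ghr by 0.08 and Stat3 by 0.19. The SD on the other 44 arrays was 0.05 for Ghr and 0.17 for Stat3. Mouse G8 had 1 array of each kind. Its Glycam1-high array read 8.98 for Socs3 against 7.18 on the other, 8.66 against 7.54 for Il6ra, 10.46 against 9.75 for Igf1, and 8.59 against 9.16 for Cish. Stat3 read 9.72 against 9.32 and Stat5a 10.63 against 10.18, while Stat5b read 11.81 against 12.06 and Il15 9.83 against 10.20. The part of lymphocytes, adipocytes and macrophages in these levels was not tested further than by leaving the arrays out.

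**Figure D4:**
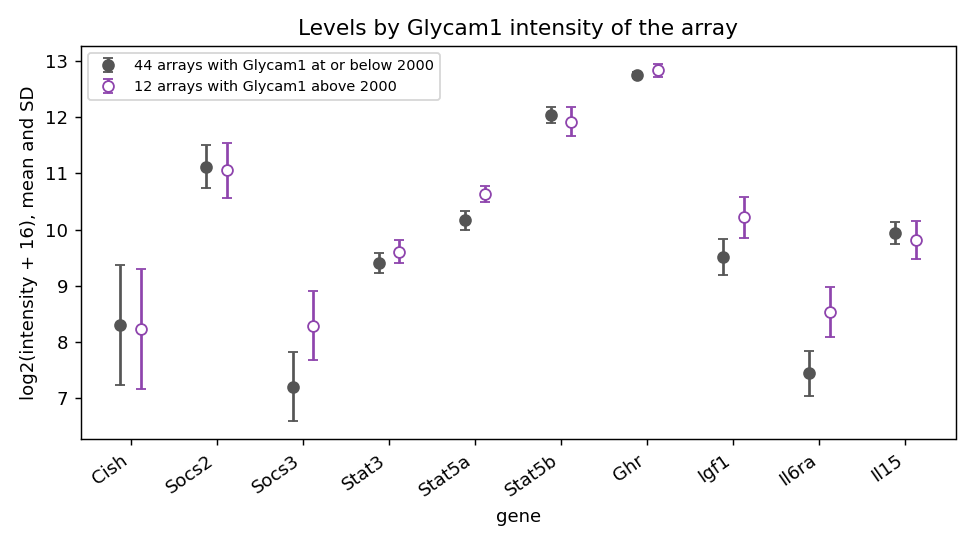
Mean log2 level (points) and SD between arrays (bars) of each gene on the 44 arrays with a Glycam1 intensity at or below 2000 and the 12 above it. Il6ra and Socs3 differ by 1.09 and 1.08, Cish and Socs2 by -0.06 and -0.07.

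The spread of Cish between mice set it apart from the other members. Its SD over the 55 mice was 1.07, against a median of 0.223 over all tested genes, and its level spanned 22.3-fold. Within groups, without the Glycam1-high arrays, the SD of Cish was 1.01 and only 14 of 12347 genes, or 0.113%, had a larger one. Socs3 (0.628) was exceeded by 1.21% of genes in that measure, Socs2 (0.384) by 5.31% and Il6ra (0.381) by 5.43%. Stat3 (0.164) was exceeded by 44.1%, Stat5a (0.138) by 55.5% and Ghr (0.054) by 97.1%. Over all 55 mice 67.3% of genes had a larger SD than Stat5b. Igf1 (0.327) was exceeded by 8.06%. On these probe sets the inhibitors, Igf1 and Il6ra thus varied among mice of the same group more than most genes. The fainter Stat5b probe set had an SD of 0.31 over the 55 mice, against 0.18 on the main one, so the small spread of Stat5b holds for its main probe set alone.

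When the 9 group means of each member were put in order, the gap between neighbours exceeded the SDs of both groups in 1 of 80 pairs with all mice and in 0 of 80 without the Glycam1-high arrays. The single pair was cessation FA and 2 weeks of air in Stat5b. For Cish the order with all mice was cessation RA (9.52), 2 weeks of smoke (8.82), untreated (8.80), 12 weeks of smoke (8.50), cessation FA (8.08), 12 weeks of air (7.92), 24 weeks of air (7.77), 2 weeks of air (7.76) and 24 weeks of smoke (7.31). When these arrays were left out RA stayed highest and 24 weeks of smoke lowest, at 9.33 and 7.37, and untreated mice came second at 8.97.

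Correlations between members over the 44 mice were weak to moderate, and mice of a group share their exposure and array processing. The highest were Socs3 with Stat3 (0.47), Socs3 with Cish (0.40), Il6ra with Stat3 (0.39) and Socs2 with Cish (0.36). Within groups these were 0.52, 0.39, 0.29 and 0.44. Stat5b and Cish correlated at 0.26 over the mice and at -0.03 within groups. Within groups the correlation of Cish was thus higher with Socs2 and Socs3 than with Stat5b, a comparison with no test. Untreated replicate 2 was the highest of all mice in both Cish (11.13) and Socs3 (9.78). The untreated means without the Glycam1-high arrays were 8.97 and 7.56. How far the correlation of Cish with Socs3 rests on that mouse was not tested.

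Of all tested genes on unshared probe sets, those most like Cish over the 44 mice were Ppm1b (0.59), a protein phosphatase, Chac1 (0.56), a glutathione-degrading enzyme, Gprc5c (0.55), an orphan receptor, Rtf1 (0.55), a transcription elongation factor, and Gnao1 (0.55), a G protein subunit. Within groups their correlations with Cish were 0.57, 0.39, 0.44, 0.36 and 0.45. Rfx1 (-0.62), a transcription factor, Adamtsl1 (-0.54) and Sult5a1 (-0.53) were lowest. With all 55 mice the correlation of Ppm1b was 0.39, that of Chac1 0.56 and that of Rfx1 -0.36. Those of Gprc5c, Rtf1 and Gnao1 were then 0.36, 0.23 and 0.41, and those of Adamtsl1 and Sult5a1 -0.27 and -0.39. A correlation gives no size of change. Over the 44 mice the group means of Ppm1b ran only from 12.71 to 12.78, while those of Cish spanned 1.96. These genes are extremes of all tested genes, of which 0.146% correlated with Cish above 0.5 over the 44 mice.

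The genes most like Socs2 were Rasl11b (0.69), a small GTPase, Rhobtb1 (0.68), another GTPase family member, Cuedc1 (0.62), Aff3 (0.62), a transcription elongation protein, and Mycn (0.59), a transcription factor of the Myc family. Within groups these were 0.63, 0.74, 0.63, 0.61 and 0.66. Eif4g2 (-0.59), a translation factor, Itga4 (-0.56), an integrin, and Nin (-0.55) were lowest. With all 55 mice Rasl11b, Rhobtb1 and Mycn stood at 0.70, 0.68 and 0.67, while Cuedc1 and Aff3 stood at 0.45 and 0.43. Eif4g2 then stood at 0.04, Itga4 at -0.39 and Nin at -0.46. These genes too are extremes of all tested genes, of which 0.105% correlated with Socs2 above 0.5 over the 44 mice.

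The wider pathway was given by a list of 95 other genes, of which 77 were tested. In 24 weeks of smoke against cessation RA, 2 of 77 passed as higher and 1 as lower, where 2.34% of all genes passed, with a median difference of 0.11 against -0.01 over all genes. Bcl2l1, a STAT5-induced survival gene, was 0.32 higher (adjusted p 0.017 in limma). Ptpn2, a phosphatase that acts on JAK and STAT proteins, was 0.28 higher (adjusted p 0.031). Grb10, an adaptor that restrains insulin and IGF receptors, was 0.20 lower (adjusted p 0.024).

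Without the Glycam1-high arrays 4 of the 77 passed as higher, Cntfr (0.79), Sh2b3 (0.39), Ptpn2 (0.35) and Bcl2l1 (0.34), and Igf1r (-0.36) as lower, where 3.28% of all genes passed. Cntfr is the receptor of ciliary neurotrophic factor, Sh2b3 an adaptor that dampens JAK2, and Igf1r the IGF1 receptor. With all mice no gene passed in 5 of the lists. Their genes of lowest p were Igf1r (-0.32, adjusted p 0.053) in the growth hormone and IGF list, Ctf1 (-0.53, 0.057) among ligands, Cntfr (0.52, 0.077) among receptors, Mcl1 (0.17, 0.20) among STAT3 targets and Tyk2 (0.27, 0.32) among kinases and STATs.

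In other comparisons with all mice the wider list had between 0 and 5 calls. For cessation RA against air 5 of 77 passed, where 1.76% of all genes did, all lower (Bcl2l1, Cebpb, Cntfr, Gadd45g and Id1). Against FA, 24 weeks of smoke had 4 of 77 higher (Bcl2l1, Bcl6, Pim1 and Ptpn2) and Grb10 lower, where 3.55% of all genes passed. FA against air had 1 of 77, Bcl2l1, lower, where 0.081% of all genes passed. After 2 weeks of air 1 of 77, the kinase Jak2, was higher than in untreated mice, where 0.518% of all genes passed. None of the 77 passed for smoke against air at 2, 12 or 24 weeks.

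Without the Glycam1-high arrays, cessation RA against air had 8 of 77 calls, where 3.97% of all genes passed. Ctf1 was higher, and Bcl2l1, Cntfr, Gadd45g, Id1, Osmr, Sh2b3 and Tyk2 were lower. FA against air had 2 lower, Bcl2l1 and Cntfr, where 0.235% of all genes passed. Against FA, 24 weeks of smoke had 4 higher, Bcl2l1, Bcl6, Cntfr and Ptpn2, where 1.9% passed. Jak2 was higher and Grb10 lower after 2 weeks of air than in untreated mice, where 1.94% passed. From 2 weeks of air, Insr was higher at 12 weeks, where 0.907% passed, and Cebpb at 24 weeks, where 2.71% passed. The kinase Akt1 was lower in smoke than in air at 24 weeks (-0.41), where 0.364% passed, and over the mean of the 3 times (-0.19), where 0.154% passed.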

How the data were processed

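The deposited values are linear intensities, 1 per probe set and array. The sources used here do not say how the authors combined probes or scaled arrays. Array medians lay between 62.5 and 77.5, and precision is limited by the number of arrays. A value below -15 was set to -15 (5 of 2522072 values), and log2 of the value plus 16 was used. The platform annotation gave 1 gene symbol for 34945 of 45037 probe sets, several for 932 and none for 9160. Each gene was represented by its probe set of highest mean, and genes under the 40th percentile of probe set means (5.71) were dropped. A single limma model of the 9 groups, with 46 residual degrees of freedom, gave 13 comparisons, with calls at a Benjamini-Hochberg adjusted p under 0.05. It was repeated without arrays of Glycam1 intensity above 2000.

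Members and gene lists were chosen with earlier results of these data known. Named genes were the members, the 5 most and 3 least correlated genes of Cish and Socs2, and, of each pathway list, up to 3 genes passing each way where a member passed, or else the gene of lowest p. Genes of the marker, clock and endothelial lists, and pathway genes of other comparisons, were named after their values were seen. Alternatives were other pseudocounts, quantile normalization, filters, probe set rules, moderation, array weights, fitted samples, covariates, a threshold of 0.1, and each replicate left out. The model was tested on simulated data. Where the labels do not say that samples are separate animals, p-values measure only the spread between samples. R 4.3.3, limma 3.58.1, Python 3.11.15, numpy 2.4.6, pandas 2.3.3 and matplotlib 3.10.9 were used.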

Additional observations from a re-analysis of the deposited data

Results flagged for a closer look

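In 13 of 90 pairs of a member and a group, the highest or lowest mouse stood far from its nearest neighbour relative to the group's range. The limit used flags about 1 in 20 by chance for normally spread values. How often it was passed over all tested genes was not counted. Members share their mice, so the flags are not independent and their count is a description. Of the 13, 8 were mice with a Glycam1-high array. Replicate 6 of 24 weeks of smoke, such a mouse, was lowest in Stat5b at 11.24 and in Ghr at 12.48, and highest in Stat3 at 10.14. Replicate 3 of the same group was highest in Cish at 8.80. In cessation FA, replicate 3 was highest in Stat3 at 10.17 and in Il6ra at 8.15, and replicate 4 was highest in Stat5a at 10.57. Replicate 3 of 2 weeks of air was highest in Igf1 at 10.38 and in Stat3 at 9.51. At 12 weeks of smoke, replicate 5 was highest in Stat5a at 10.84 and replicate 6 lowest in Socs2 at 10.51. Replicate 2 of 12 weeks of air was lowest in Ghr at 12.62, and replicate 6 of 24 weeks of air was lowest in Socs2 at 10.78. The change of the smoke difference from 2 to 24 weeks passed for none of the 10 members (limma, adjusted p under 0.05), and Cish alone had an unadjusted p under 0.05. Over all tested genes, 2293 of 12347 had an unadjusted p under 0.05 for this change.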

How the results depend on the processing

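For 24 weeks of smoke against cessation RA, the count of members that passed was 2, where 2.34% of all tested genes passed. It was 1 without a filter, 0 under array weights, 0 with the compared groups alone, 0 without the Glycam1-high arrays and 3 with every probe set (Cish, Socs2 and Stat5b), and with each replicate left out in turn it ran from 1 to 2. For 24 weeks of smoke against FA the count of 0 became 1, Stat5b, with the mean of probe sets, every probe set, arrays outside the main run of identifiers left out, the title number as covariate, or a threshold of 0.1, and ran from 0 to 1 with replicates left out (1 without smoke replicate 3, 4 or 5). For RA against air it became 1 under array weights (Stat5b) and at a threshold of 0.1 (Cish), and ran from 0 to 1 with replicates left out. Under array weights it also became 1 for 2 weeks of air against untreated mice (Stat5b) and for 24 against 2 weeks of air (Il6ra). In the other 8 comparisons it stayed at 0 under every alternative run. Apart from the fit without the Glycam1-high arrays, the share of all genes that passed under each alternative is not given here. A changed threshold or set of probe sets can change that share too, so these counts describe the processing and are no result about the members. The Cish difference of 24 against 2 weeks of air, 0.01, turned to -0.0024 with a pseudocount of 64, -0.016 with quantile normalization, -0.10 with array weights, -0.0033 without the Glycam1-high arrays and -0.046 with the title number, and ran from -0.19 to 0.19 with replicates left out; that of 12 against 2 weeks of air ran from -0.18 to 0.35. The cause was not tested. No paired analysis was possible because replicate numbers follow the order of deposit and only name the samples. Dim probe sets near background limit what could be seen.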
